A study of Mus musculus with 24 samples.

Results

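The claudins of epithelial tight junctions described here are Cldn1, Cldn3, Cldn4, Cldn6, Cldn7, Cldn8, Cldn10, Cldn12 and Cldn23. They are 9 of the 29 claudin rows in a table of 22943 genes, chosen by symbol with earlier results of these data known. Their counts are therefore set beside the share of all tested genes without a test. RNA was sequenced from whole uteri of 21-day-old female C57bl/6 mice in 24 libraries. Knockout uteri (cKO) were PgrCre+;Ctcf-f/f, and control uteri (ff) were from Ctcf-f/f littermates without Cre, so the floxed Ctcf allele was shared by all groups. Each mouse had 6 hours of treatment by injection under the skin, with 0.5 mg of progesterone (P4) in 0.05 ml of sesame oil or with the oil vehicle (V) alone. The groups were cKO P4 (n = 4), ff P4 (n = 4), cKO V (n = 8) and ff V (n = 8). The labels place the libraries in 2 batches, a mixed batch of 16 libraries with 4 of each group and a vehicle-only batch with the other 4 cKO V and 4 ff V libraries. Pgr-driven Cre acts in cells that express the progesterone receptor gene, so other cells of the uterus keep Ctcf, and the Cre allele and the loss of Ctcf cannot be told apart because the controls lack both. Nothing in the labels says whether each library came from its own mouse, so the p-values measure the spread between these libraries. In ff V the number 1 (libraries 1a and 1b) and in cKO V the number 11 (11a and 11b) appear in both batches, and the labels do not say whether each pair is 1 mouse, so n counts libraries.

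Claudins are membrane proteins that join neighbouring epithelial cells at the tight junction and set which ions and solutes pass between the cells. Some seal the space between cells, such as claudins 1, 3, 4 and 8, while others, such as claudin 10, form paracellular ion channels. In the uterus, the tight junctions of the lining and gland epithelium bound the lumen, and their makeup changes with ovarian steroids. CTCF binds DNA, holds the bases of chromatin loops and can insulate a gene from the enhancers of its neighbours.

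Promoter sequences are shown for Cldn3 and Cldn4, neighbours on chromosome 5 whose levels moved in opposite directions between genotypes after vehicle, and for Cldn6, the member at the lowest level in control uteri. Each is the RefSeq window (build GRCm38.p6) from 250 bases before to 50 bases after the transcript start, read on the strand of the gene. Capitals mark CAGGTG (the E-box bound by Snail and Zeb factors), GGGCGG (the GC box) and AGGNGGC (a part of the CTCF motif), each searched on both strands.
Cldn3, chr5:134985964-134986263, plus strand: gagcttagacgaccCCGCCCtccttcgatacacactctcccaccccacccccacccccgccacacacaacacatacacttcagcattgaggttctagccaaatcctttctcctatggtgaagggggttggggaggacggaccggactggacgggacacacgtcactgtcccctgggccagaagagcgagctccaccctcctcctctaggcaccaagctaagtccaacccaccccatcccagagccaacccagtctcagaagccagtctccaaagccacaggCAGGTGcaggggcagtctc
Cldn4, chr5:134946885-134947184, minus strand: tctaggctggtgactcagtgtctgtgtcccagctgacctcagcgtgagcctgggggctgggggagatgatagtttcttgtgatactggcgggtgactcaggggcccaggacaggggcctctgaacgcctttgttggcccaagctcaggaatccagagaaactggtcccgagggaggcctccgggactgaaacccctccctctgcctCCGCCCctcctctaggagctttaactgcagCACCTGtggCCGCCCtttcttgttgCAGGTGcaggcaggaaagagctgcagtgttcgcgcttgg
Cldn6, chr17:23679115-23679414, plus strand: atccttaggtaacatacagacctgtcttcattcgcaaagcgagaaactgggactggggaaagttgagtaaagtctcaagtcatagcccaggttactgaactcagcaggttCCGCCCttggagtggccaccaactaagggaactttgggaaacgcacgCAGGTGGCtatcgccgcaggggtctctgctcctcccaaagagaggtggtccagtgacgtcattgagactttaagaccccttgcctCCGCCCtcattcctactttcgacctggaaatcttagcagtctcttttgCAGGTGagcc
CAGGTG was found 1 time in the Cldn3 window, 2 times in that of Cldn4 and 2 times in that of Cldn6, and it is in 20.2% of all 32851 promoters of the same length. GGGCGG was found 1 time for Cldn3, 2 times for Cldn4 and 2 times for Cldn6, and in 35.7% of all promoters. AGGNGGC was found in the Cldn6 window, where it overlaps a CAGGTG, and not in the other two, against 29.4% of all promoters. TGTTCT, the core of the site that progesterone and glucocorticoid receptors bind (19.0% of all promoters), and AACCGGTT, the Grainyhead site (0.146%), were in none of these 3 windows. RefSeq windows were matched for 7 of the 9 members.

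In GENCODE M21 (build GRCm38), Cldn4 (ENSMUSG00000047501, minus strand, 134945119 to 134946934) and Cldn3 (ENSMUSG00000070473, plus strand, 134986214 to 134987472) lie 39280 bases apart on chromosome 5, each with a single exon. An antisense gene, Wbscr25, overlaps Cldn3, and since no strand setting is given in the sources used here, its reads and those of Cldn3 could not be told apart. Cldn6 (ENSMUSG00000023906) lies on chromosome 17 from 23679249 to 23682446 on the plus strand, with 138 bases between its end and Cldn9 on the minus strand. Cldn1 and Cldn8 are on chromosome 16, Cldn7 on 11, Cldn10 on 14, Cldn12 on 5 and Cldn23 on 8. Cldn10 spans 87582 bases with 3 annotated transcripts, whose alternative first exons are known to give an anion-selective and a cation-selective channel, and the gene-level values do not separate them.

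Levels are in RPKM (reads per kilobase of the gene for a fixed number of mapped reads). The authors had corrected them for batch by adding 1 constant per gene to each batch, so that some lie below 0. Depth read from the steps between low values was 29.9 to 100.6 M reads a library. Ctcf was at 9.04 to 10.9 RPKM in cKO P4 against 25.1 to 27.5 RPKM in ff P4 uteri, and at 10.1 to 13.1 RPKM in cKO V against 23.0 to 30.6 RPKM in ff V uteri. The exact permutation test gave p = 0.0286 after progesterone, the smallest that 4 against 4 libraries allow, and p = 0.000155 after vehicle (two-sided). Epithelial markers were present in every library, with Epcam between 21.5 and 62.0 RPKM. Oviduct markers stood out in ff P4 library 7 (Ovgp1 at 379.8 RPKM), cKO V library 12 (191.4 RPKM) and ff V library 3 (145.7 RPKM), and squamous markers in cKO P4 library 8 (Krt5 at 14.8 RPKM) and cKO V library 9 (50.5 RPKM). Results that change without these 5 libraries are given with the value without them. In bulk tissue, fewer cells of a type and less RNA per cell cannot be told apart.

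Cldn3 had the highest level of the 9 members in each of the 4 groups. It made up 36.5% of the summed group means in cKO P4 uteri, against 54.9% in ff P4 uteri, and 30.8% in cKO V uteri, against 44.5% in ff V uteri. The order below it differed by genotype. Cldn4 came second in both knockout groups and Cldn7 second in both floxed groups, although the member in second place overlapped the next one in all groups but cKO P4. Cldn6 was the lowest member in both floxed groups, and Cldn8 the lowest in both knockout groups, each below every value of the next member above it. The sum of the 9 members was 285 ± 35.3 RPKM in cKO P4 and 274 ± 43.6 RPKM in ff P4 uteri (SD, n = 4 each), and 151 ± 21.6 RPKM in cKO V and 200.2 ± 41.5 RPKM in ff V uteri (SD, n = 8 each). These levels carry the constant of the batch correction, which can be bounded closely only for Cldn6.

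**Figure D1:**
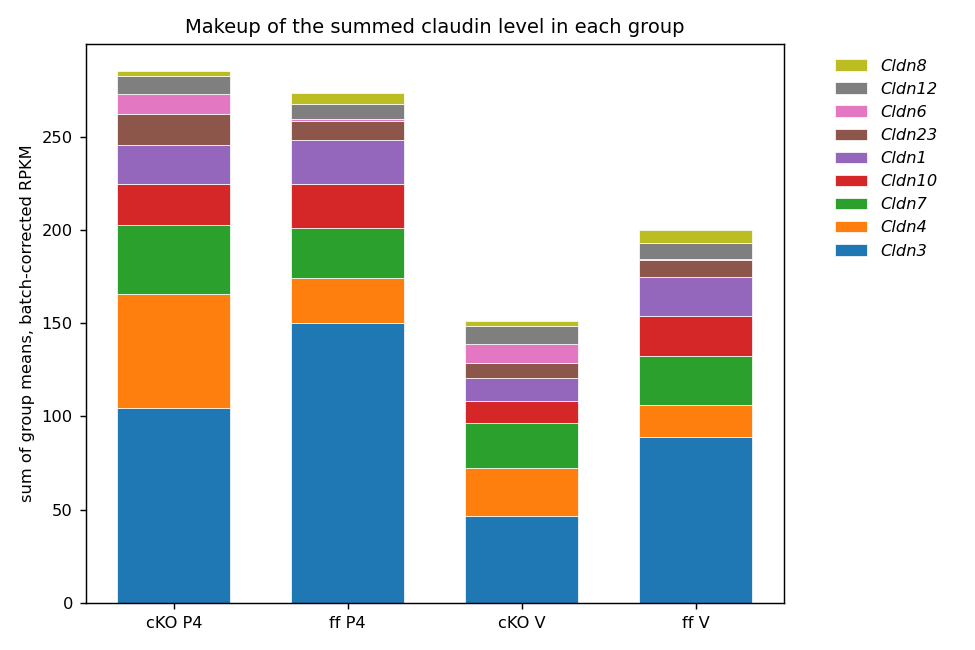
Sum of the group mean levels (batch-corrected RPKM) of the 9 claudins in each group, stacked by gene with Cldn3 at the bottom. Cldn4 takes 61.4 RPKM of the cKO P4 bar against 23.9 RPKM of the ff P4 bar. Cldn6 is visible only in the knockout bars and as a thin band in the ff P4 bar. That ff P4 band, 1.18 RPKM, is mostly the constant of 1.03 to 1.17 RPKM that the batch correction added to the mixed batch. With the constant taken off, Cldn6 was at 0 to 0.170 RPKM in ff P4 and 0 to 0.637 RPKM in ff V uteri.

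Tests used limma on log2(RPKM + 0.5) with values below 0 set to 0, all 4 groups and a batch term in 1 fit, and Benjamini-Hochberg adjustment at 0.05 over the 14284 genes that reached 1 RPKM in 4 or more libraries. All 9 members passed this filter, Cldn6 through its knockout libraries and through the constant added in the mixed batch. The genotype calls of Cldn6 are counted below, but for that reason they add nothing to its levels. After vehicle, 2 members were higher (Cldn4 and Cldn6) and 4 lower (Cldn1, Cldn3, Cldn8 and Cldn10) in cKO V than in ff V uteri, where 13.1% of all tested genes were called higher and 11.5% lower. After progesterone, 4 members were higher (Cldn4, Cldn6, Cldn12 and Cldn23) and 1 lower (Cldn8) in cKO P4 than in ff P4 uteri, against 12.3% and 7.06% of all tested genes. With progesterone, 4 members were higher (Cldn3, Cldn4, Cldn10 and Cldn23) and 0 lower in cKO P4 than in cKO V uteri, against 4.00% of all tested genes called higher and 4.66% lower. In ff P4 against ff V uteri, 1 member was higher (Cldn3) and 0 lower, against 7.84% higher and 15.1% lower of all tested genes. The median log2 fold change of the 9 members was -0.22 for cKO V against ff V, 0.31 for cKO P4 against ff P4, 0.79 for cKO P4 against cKO V and 0.08 for ff P4 against ff V, beside -0.01, 0.03, -0.02 and -0.06 over all tested genes. Relative to the mean of the epithelium markers these medians were -0.10, -0.17, 0.48 and 0.37, so that for cKO P4 against ff P4 the sign turned. With numbers 1 of ff V and 11 of cKO V counted once each, a fit chosen after seeing the data, 16 of the 17 member calls in these comparisons and in the difference between the responses held. The difference for Cldn23 was lost (0.83, adjusted p = 0.0670), while Cldn3 passed for cKO P4 against ff P4 (-0.52, adjusted p = 0.0153) and Cldn4 for ff P4 against ff V (0.53, adjusted p = 0.0158). The comparisons share libraries: both genotype comparisons and both hormone comparisons draw on the same 4 groups. The log2 sizes of all 9 members also depend on the constant of the batch correction, which was added before the logarithm. In the mixed batch it may lie between -2.07 and 1.94 RPKM for Cldn8 and between -34.9 and 41.1 RPKM for Cldn3. The SEs do not include this. The order of libraries within a batch does not depend on it.

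**Figure D2:**
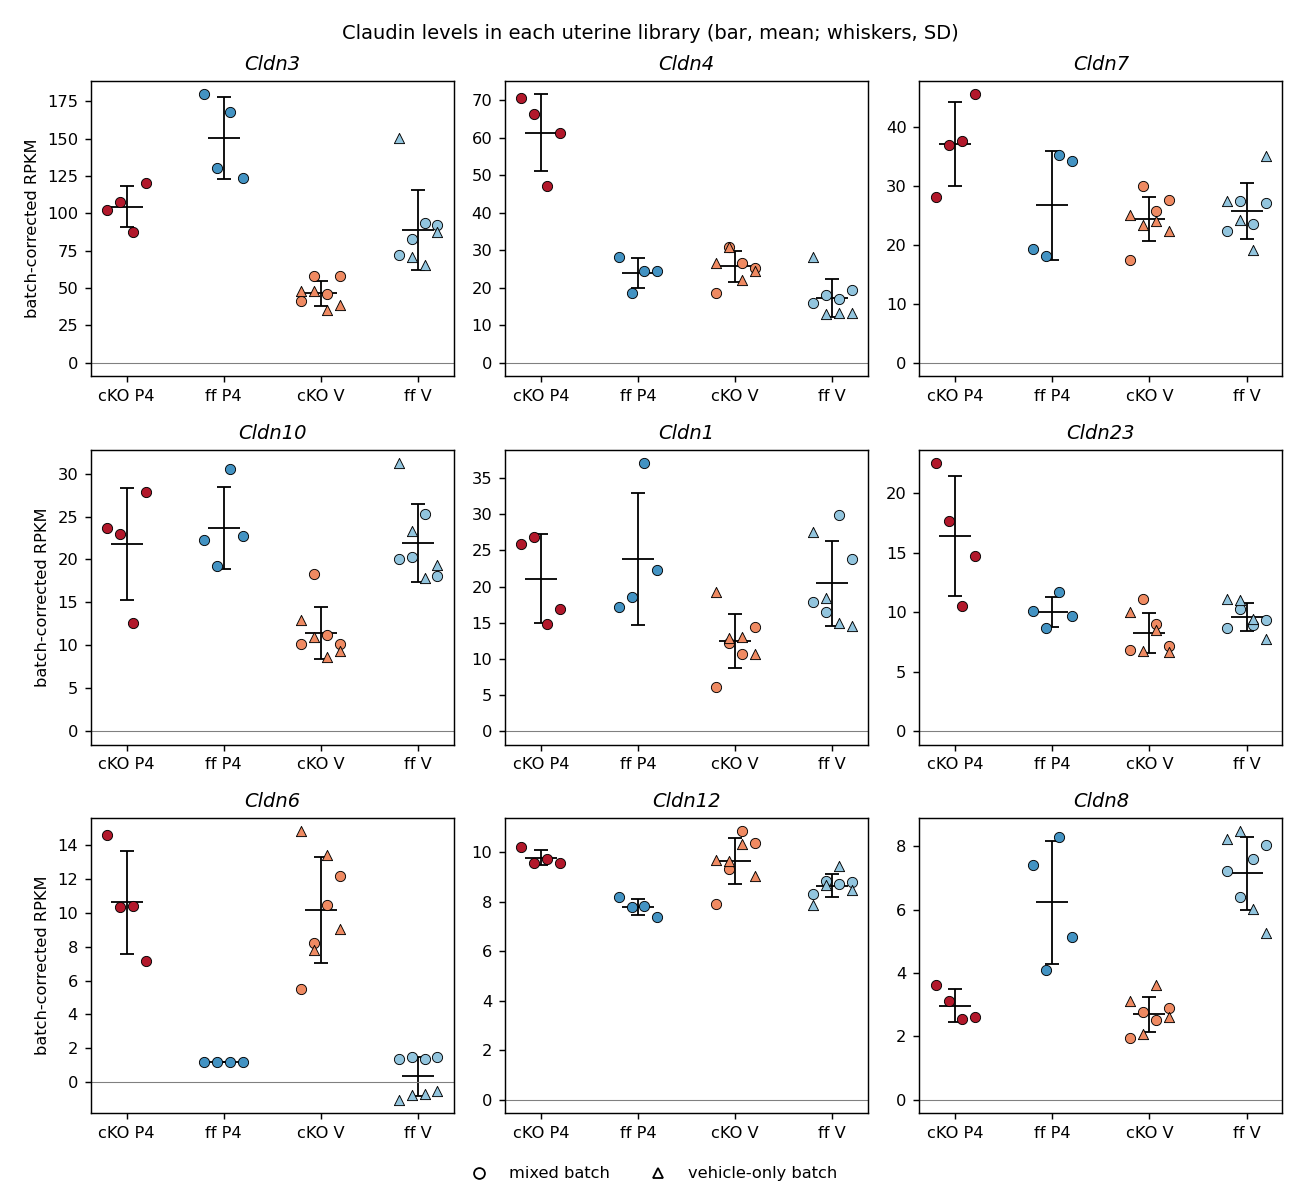
Batch-corrected RPKM of each claudin in each of the 24 libraries, by group, with circles for the mixed batch, triangles for the vehicle-only batch, and the group mean with its SD. Cldn6 and Cldn8 separate knockout from floxed uteri under both treatments, and Cldn4 stands highest in cKO P4 uteri at 47.2 to 70.7 RPKM.

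**Figure D3:**
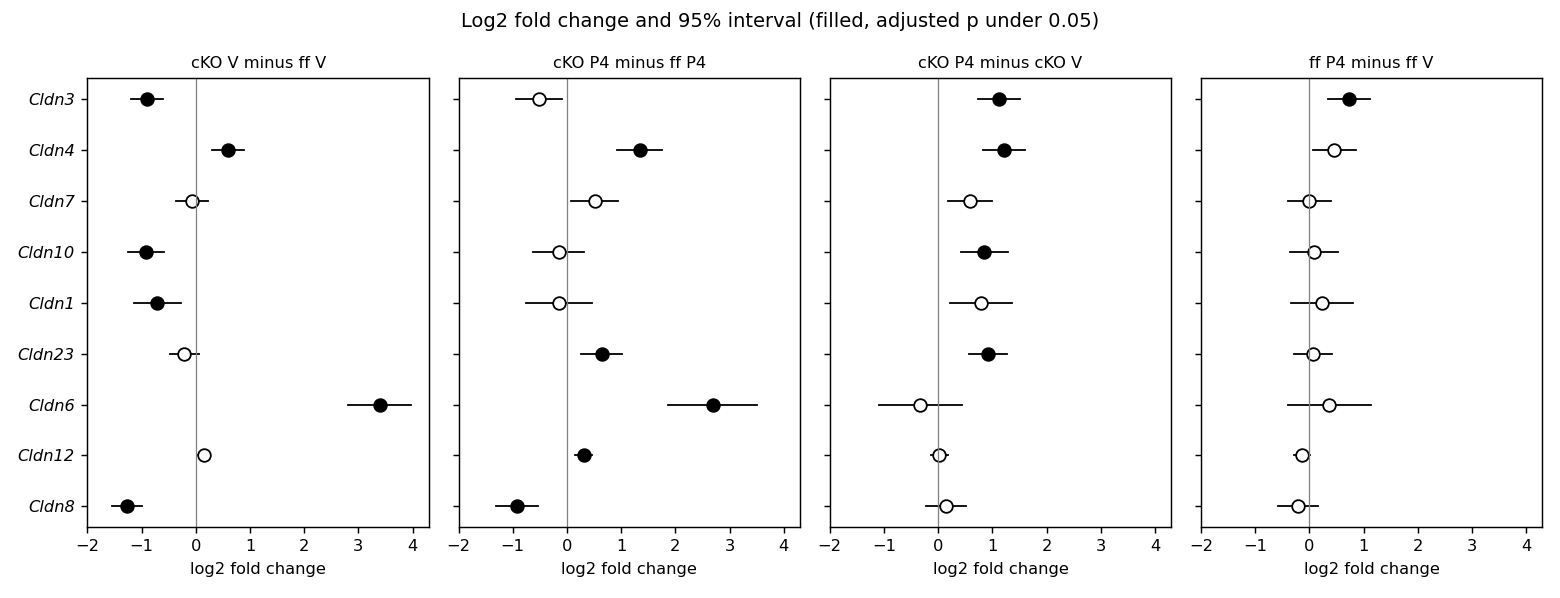
Log2 fold changes with 95% intervals from limma for the 9 claudins in 4 comparisons, with filled points where the adjusted p was under 0.05. Points to the right of 0 are higher in the first-named group, as for Cldn4, which is filled in both genotype comparisons and in the hormone comparison of knockout uteri.

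Among the sealing claudins, Cldn3 rose with progesterone in both genotypes and fell with the knockout after vehicle. Claudin 3 tightens the paracellular barrier to ions. It was at 102.2, 107.5, 87.3 and 120.4 RPKM in the cKO P4 libraries and at 179.5, 130.3, 167.8 and 123.5 RPKM in the ff P4 libraries. In vehicle uteri it ranged from 34.9 to 57.8 RPKM in cKO V libraries (median 47.0) and from 65.2 to 150.04 RPKM in ff V libraries (median 84.8). Every knockout library was thus below every floxed library of the same treatment, and the highest ff V library (1a) stood apart from the other 7, the next of which was at 93.35 RPKM. The log2 fold change was -0.90 ± 0.14 (SE) for cKO V against ff V (adjusted p = 4.52e-05, limma). For cKO P4 against ff P4 it was -0.52 ± 0.20 and did not pass (adjusted p = 0.0767, limma), although it passed as a difference of -45.9 RPKM (adjusted p = 0.0273), in the mixed batch alone (adjusted p = 0.0201), with weights per library, whose estimate did not converge (adjusted p = 0.0166), without ff V library 1a (adjusted p = 0.0171), and at -0.99 relative to the epithelium markers (adjusted p = 0.000449). Progesterone raised Cldn3 by 1.12 ± 0.19 on the log2 scale in knockout uteri (cKO P4 against cKO V, adjusted p = 0.000601, limma) and by 0.73 ± 0.19 in floxed uteri (ff P4 against ff V, adjusted p = 0.00718, limma). Without the 5 libraries with oviduct or squamous markers the floxed response was 0.70 with an adjusted p of 0.0530. The difference between the responses was 0.39 (95% interval -0.12 to 0.90, adjusted p = 0.528).

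Cldn4 was higher in knockout uteri under both treatments, opposite in direction to Cldn3 after vehicle. Claudin 4 limits the passage of sodium between cells and is a receptor for Clostridium perfringens enterotoxin, as is claudin 3. The cKO P4 libraries were at 70.7, 66.4, 47.2 and 61.4 RPKM, and the ff P4 libraries at 28.1, 18.5, 24.5 and 24.5 RPKM. The cKO V libraries ranged from 18.6 to 31.0 RPKM (median 25.9) and the ff V libraries from 12.9 to 28.3 RPKM (median 16.5). The progesterone groups did not overlap, while the vehicle groups overlapped through cKO V library 9 and the highest ff V library, again 1a. The log2 fold change was 1.34 ± 0.20 for cKO P4 against ff P4 (adjusted p = 4.24e-05, limma) and 0.59 ± 0.14 for cKO V against ff V (adjusted p = 0.00348, limma). In the vehicle-only batch alone the second was 0.68 and did not pass (adjusted p = 0.144). Progesterone raised Cldn4 by 1.22 ± 0.19 in knockout uteri (adjusted p = 0.000266, limma), all 4 cKO P4 libraries lying above all 8 cKO V libraries. The floxed response of 0.46 ± 0.19 did not pass (adjusted p = 0.0773, limma), except at 0.49 with a replicate block (adjusted p = 0.0404), at 0.49 with weights per library (adjusted p = 0.00503), at 0.75 relative to the epithelium markers (adjusted p = 0.0103) and without ff P4 library 2 (adjusted p = 0.0452) or ff V library 1a (adjusted p = 0.0146). The difference between the responses was 0.76 on the log2 scale (adjusted p = 0.114) and 29.1 RPKM on the linear scale (adjusted p = 0.000912), so its call depended on the scale, and it was 0.80 with weights per library (adjusted p = 0.00134).

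On the batch-corrected levels, the ratio of Cldn4 to Cldn3 separated the genotypes. Over the mixed batch it was 0.590 ± 0.081 in cKO P4 and 0.161 ± 0.026 in ff P4 uteri, and 0.501 ± 0.065 in cKO V and 0.209 ± 0.018 in ff V uteri (SD, n = 4 each). The lowest ratio in knockout uteri, 0.439, was above the highest in floxed uteri, 0.222. Both levels carry the constant added to the mixed batch, which may lie between -34.9 and 41.1 RPKM for Cldn3. For Cldn4 it may lie between -12.9 and 15.9 RPKM. The sizes of the ratio are therefore not ratios of uncorrected levels, and whether the separation holds without the constants is not known. The ratio was formed after the values were seen and was not tested.

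**Figure D4:**
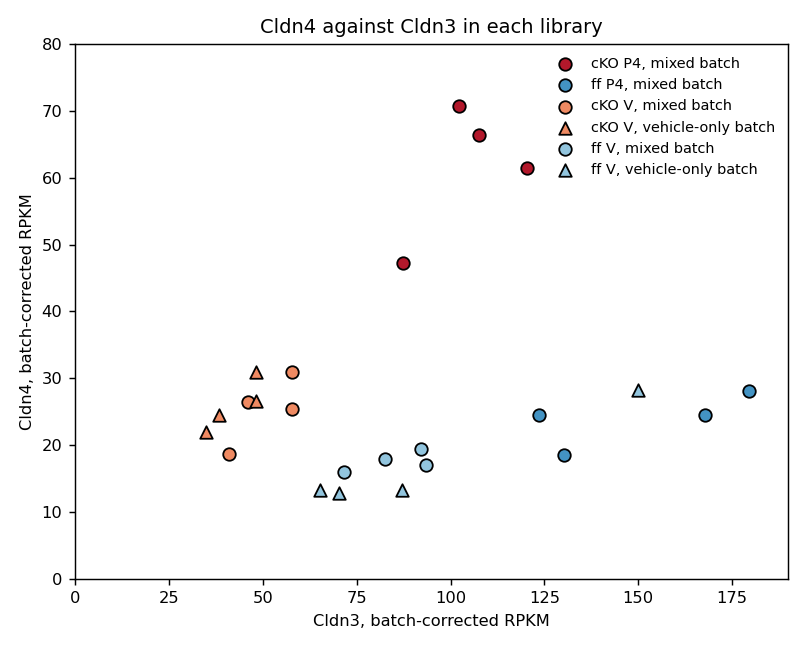
Cldn4 against Cldn3 in each library, both in batch-corrected RPKM, with circles for the mixed batch and triangles for the vehicle-only batch. Every knockout library lies to the left of all floxed libraries of the same treatment, and cKO P4 libraries hold the highest Cldn4 levels, 47.2 to 70.7 RPKM.

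Cldn1 and Cldn8, also sealing claudins, were lower in cKO V than in ff V uteri. Claudin 1 is required for the barrier of the skin, and claudin 8 is known from the distal nephron, where it interacts with claudin 4. Cldn8 was at 3.62, 3.12, 2.54 and 2.59 RPKM in cKO P4 libraries and at 7.41, 4.09, 8.28 and 5.12 RPKM in ff P4 libraries. After vehicle it ranged from 1.94 to 3.63 RPKM in cKO V (median 2.69) and from 5.26 to 8.47 RPKM in ff V uteri (median 7.41). The genotypes did not overlap under either treatment, and the log2 fold changes were -0.92 ± 0.19 for cKO P4 against ff P4 (adjusted p = 0.00133, limma) and -1.27 ± 0.13 for cKO V against ff V (adjusted p = 2.09e-07, limma). Progesterone moved Cldn8 by 0.14 (95% interval -0.23 to 0.51) in knockout and by -0.20 (95% interval -0.57 to 0.16) in floxed uteri, neither of which passed.

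Cldn1 was at 25.9, 26.8, 14.9 and 16.8 RPKM in cKO P4 libraries and at 17.2, 18.5, 37.1 and 22.4 RPKM in ff P4 libraries. It ranged from 6.15 to 19.3 RPKM in cKO V (median 12.6) and from 14.6 to 30.0 RPKM in ff V uteri (median 18.2). Overlap was wide after progesterone and came from 1 cKO V library after vehicle, the other 7 lying below all ff V libraries. The log2 fold change for cKO V against ff V was -0.71 ± 0.21 (adjusted p = 0.0145, limma), and -0.41 in the vehicle-only batch alone, where it did not pass (adjusted p = 0.390). For cKO P4 against ff P4 it was -0.15 (95% interval -0.76 to 0.46, adjusted p = 0.769). Progesterone moved Cldn1 by 0.79 in knockout uteri (95% interval 0.22 to 1.36, adjusted p = 0.0775, limma) and by 0.23 in floxed uteri (95% interval -0.34 to 0.80). Neither passed. The knockout response was 1.09 with weights per library, whose estimate did not converge (adjusted p = 5.29e-05), and 0.48 relative to the epithelium markers (adjusted p = 0.170). The 2 highest Cldn1 values of the floxed groups, 37.1 and 30.0 RPKM, were those of the 2 floxed libraries with oviduct markers, and the lowest value of all, 6.15 RPKM, was that of cKO V library 9 with squamous markers. The part of those tissues in the Cldn1 levels was not tested, but without the 5 marked libraries the cKO V call held.

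Cldn10, the channel-forming member, was at about the same level in 3 groups and lower in cKO V uteri. It was at 23.7, 23.0, 12.6 and 27.9 RPKM in cKO P4 libraries and at 22.2, 19.3, 30.5 and 22.7 RPKM in ff P4 libraries. It ranged from 8.59 to 18.3 RPKM in cKO V (median 10.5) and from 17.8 to 31.3 RPKM in ff V uteri (median 20.2). The vehicle groups overlapped through the highest cKO V library, 10, which stood apart from the other 7. The log2 fold change was -0.92 ± 0.16 for cKO V against ff V (adjusted p = 0.000128, limma) and -0.16 (95% interval -0.62 to 0.31, adjusted p = 0.679) for cKO P4 against ff P4. Relative to the epithelium markers, the second was -0.63 and passed (adjusted p = 0.0132). Progesterone raised Cldn10 by 0.85 ± 0.21 in knockout uteri (adjusted p = 0.0126, limma), but by 0.64 without the 5 marked libraries (adjusted p = 0.219) and by 0.72 without cKO P4 library 8 (adjusted p = 0.0589). In floxed uteri it moved by 0.08 (95% interval -0.35 to 0.52). The difference between the responses was 0.77 (95% interval 0.20 to 1.34) and did not pass (adjusted p = 0.166, limma), except at 0.74 with weights per library (adjusted p = 0.00640) and at 1.00 without cKO P4 library 6 (adjusted p = 0.0330).

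Cldn7, which binds EPCAM in the basolateral membrane, did not pass in any of the 4 comparisons. It was at 28.1, 37.1, 37.6 and 45.6 RPKM in cKO P4 libraries and at 19.3, 18.1, 35.3 and 34.2 RPKM in ff P4 libraries. In vehicle uteri it ranged from 17.4 to 30.0 RPKM in cKO V (median 24.6) and from 19.1 to 35.2 RPKM in ff V (median 25.7). The ff P4 libraries fell into a lower and a higher pair, and 3 of 4 cKO P4 libraries were above all of them. The log2 fold change was 0.51 (95% interval 0.08 to 0.94, adjusted p = 0.0871) for cKO P4 against ff P4 and -0.07 (95% interval -0.37 to 0.23) for cKO V against ff V. The first passed without cKO P4 library 4 (adjusted p = 0.0478), ff P4 library 7 (adjusted p = 0.0336) or ff P4 library 9 (adjusted p = 0.0442). Progesterone moved it by 0.58 in knockout uteri (95% interval 0.18 to 0.98, adjusted p = 0.0628) and by 0.00 in floxed uteri (95% interval -0.40 to 0.40). The knockout response passed as an RPKM difference of 12.6 (adjusted p = 0.0388), with weights per library (adjusted p = 0.00168) and without cKO P4 library 4, cKO V library 10, ff P4 library 2 or ff V library 10 (adjusted p 0.0392 to 0.0483).

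Cldn6, a claudin known from embryonic epithelia and germ cell tumours, was present in knockout uteri and near 0 in floxed uteri. Batch-corrected values were 14.6, 10.3, 10.4 and 7.18 RPKM in cKO P4 libraries and 1.17, 1.17, 1.19 and 1.20 RPKM in ff P4 libraries. In vehicle uteri they ranged from 5.51 to 14.8 RPKM in cKO V (median 9.78) and from -1.03 to 1.50 RPKM in ff V (median 0.41). The constant that the correction added to the mixed batch must lie between 1.03 and 1.17 RPKM, since no uncorrected value can be below 0. With it taken off, Cldn6 lay between 6.02 and 13.6 RPKM in cKO P4 uteri against 0 to 0.170 RPKM in ff P4 uteri, and between 4.34 and 15.98 RPKM in cKO V uteri against 0 to 0.637 RPKM in ff V uteri. No floxed library reached the level of any knockout library, in either batch. The differences of means were 9.46 RPKM after progesterone and 9.86 RPKM after vehicle, and within the batches the vehicle difference was 7.68 RPKM (mixed) and 12.03 RPKM (vehicle-only). On the log2(RPKM + 0.5) scale they were 2.69 ± 0.39 and 3.39 ± 0.28 (SE), sizes that depend on the pseudocount and on the constant. Cldn6 met the filter on low values through the groups where it is high and the added constant. No p-value between genotypes is therefore given for it, and its levels are the result. Progesterone moved it by -0.33 (95% interval -1.10 to 0.43) in knockout uteri, a value whose sign was positive, 0.23, in the mixed batch alone.

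Cldn12, which lacks the PDZ-binding end of most claudins, and Cldn23, less studied, were higher in cKO P4 than in ff P4 uteri. Cldn12 had a narrow spread, at 10.2, 9.58, 9.72 and 9.58 RPKM in cKO P4 libraries and at 8.18, 7.78, 7.82 and 7.39 RPKM in ff P4 libraries. These groups did not overlap, and the log2 fold change was 0.31 ± 0.08 (adjusted p = 0.00618, limma). After vehicle Cldn12 ranged from 7.90 to 10.8 RPKM in cKO V (median 9.67) and from 7.87 to 9.46 RPKM in ff V uteri (median 8.72). That difference of 0.14 ± 0.05 was just short of the threshold (adjusted p = 0.0559, limma), and it passed with quantile normalization, as an RPKM difference and with weights per library. It was 0.18 without the 5 marked libraries (adjusted p = 0.0291), 0.16 without cKO V library 13 (adjusted p = 0.0463) or ff V library 10 (adjusted p = 0.0363), and 0.19 without cKO V library 9, where Cldn12 was lowest among the cKO V libraries (adjusted p = 0.00608). Relative to the mean of the epithelium markers, the cKO P4 difference was -0.17 (adjusted p = 0.437), so its direction held on the scale of the whole tissue alone.

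Cldn23 was at 22.5, 17.7, 10.5 and 14.7 RPKM in cKO P4 libraries and at 10.1, 8.70, 11.7 and 9.67 RPKM in ff P4 libraries. It ranged from 6.63 to 11.1 RPKM in cKO V (median 7.82) and from 7.71 to 11.1 RPKM in ff V uteri (median 9.37). In 3 of the 4 cKO P4 libraries it was above all libraries of the other groups. The log2 fold change was 0.64 ± 0.18 for cKO P4 against ff P4 (adjusted p = 0.0161, limma) and -0.22 ± 0.13 for cKO V against ff V (adjusted p = 0.245). The first did not pass without cKO P4 library 4 (0.47, adjusted p = 0.0747), cKO P4 library 5 (0.58, adjusted p = 0.0515) or ff P4 library 2 (0.58, adjusted p = 0.0547), nor relative to the epithelium markers (0.16, adjusted p = 0.510). Progesterone raised Cldn23 by 0.92 ± 0.17 in knockout uteri (adjusted p = 0.00142, limma), which was 0.81 with an adjusted p of 0.0566 without the 5 marked libraries. In floxed uteri it moved by 0.06 ± 0.17 (adjusted p = 0.840).

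Cldn23 was the 1 member whose response to progesterone differed between the genotypes by the test of that difference, where 1.46% of all tested genes were called higher and 1.03% lower. The response in knockout uteri exceeded that in floxed uteri by 0.85 ± 0.22 on the log2 scale (adjusted p = 0.0409, limma). This call was close to the threshold: it was lost in 17 of the 24 fits that left out 1 library, with adjusted p up to 0.111, in the mixed batch alone (0.78, adjusted p = 0.131), without the 5 marked libraries (0.89, adjusted p = 0.144), with no filter on low values (adjusted p = 0.0549) and relative to the epithelium markers (0.26, adjusted p = 0.358). All 9 differences but that of Cldn6 (-0.70, but 0.42 in the mixed batch alone) were above 0. The 9 differences had a median of 0.56 beside 0.03 over all tested genes, and 8 of them did not pass. Relative to the epithelium markers 6 of the 9 were below 0 and the median was -0.037.

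The summed level of 12 epithelium markers had a median of 512 RPKM in cKO P4 and 399 RPKM in ff P4 uteri, and of 397 RPKM in cKO V and 463 RPKM in ff V uteri. After vehicle 2 of the 12 were higher and 6 lower in cKO V uteri, against 13.1% and 11.5% of all tested genes. Among the lower ones were Krt19 (-0.73), Krt18 (-0.61) and Krt8 (-0.51), keratins of simple epithelium. After progesterone 5 were higher and 0 lower in cKO P4 than in ff P4 uteri, against 12.3% and 7.06% of all tested genes. The higher ones included Spint1 (0.97) and Epcam (0.88), which also stand in the lists of claudin partners. All 6 tested leukocyte markers were higher in cKO V than in ff V uteri (13.1% of all tested genes), with summed medians of 176 and 82.4 RPKM. Of these 6, 5 were higher in cKO P4 than in ff P4 uteri (12.3% of all tested genes), with 203 and 92.6 RPKM. The 8 stroma markers summed to a median of 867 RPKM (795 to 1244) in cKO P4 and 1164 RPKM (962 to 1325) in ff P4 uteri, and of 1275 RPKM in cKO V and 1323 RPKM in ff V uteri. The part of leukocytes and stroma in the claudin levels was not tested. Member levels were also taken relative to the mean of the epithelium markers. The calls of Cldn1 (log2 -0.59), Cldn3 (-0.78), Cldn4 (0.71), Cldn8 (-1.15) and Cldn10 (-0.80) for cKO V against ff V held. For cKO P4 against ff P4, Cldn4 (0.86) was called higher on this scale, and Cldn3 (-0.99), Cldn8 (-1.40) and Cldn10 (-0.63) lower. The share of all tested genes called on this scale was not recorded, so these calls cannot be set beside it. Cldn6 was at 3.51 for cKO V against ff V and at 2.21 for cKO P4 against ff P4. Its calls are left out here, because it met the filter through the groups where it is high and the added constant.

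Of the 20 other claudin rows, 9 passed the filter on low values: Cldn2, Cldn5, Cldn9, Cldn11, Cldn15, Cldn22, Cldn24, Cldn34c1 and Cldn34c2. Cldn2, whose protein forms a pore for cations and water, averaged 0.363 ± 0.131 RPKM in cKO P4 uteri and 4.14 ± 2.13 RPKM in ff P4 uteri (SD, n = 4 each), with no overlap. It averaged 0.527 ± 0.849 RPKM in cKO V and 0.675 ± 0.143 RPKM in ff V uteri (SD, n = 8 each). It reached the filter's 1 RPKM in the 4 ff P4 libraries and cKO V library 12 alone, so that it was tested only through the group where it is high, and no test of it is given. Its 2 highest values were 6.94 and 4.26 RPKM in ff P4 libraries, the first in the library with the highest oviduct markers, and its 1 high cKO V value, 2.52 RPKM, was in the cKO V library with oviduct markers. Cldn9, next to Cldn6, was 0.93 higher in cKO P4 than in ff P4 uteri (adjusted p = 0.0245) and 0.84 lower in ff P4 than in ff V uteri, and did not pass after vehicle between genotypes (0.03). Cldn15, a cation channel former of the intestine, was 0.51 higher in cKO V than in ff V uteri (adjusted p = 0.00225). Cldn5 of endothelium averaged 36.3 RPKM in cKO P4 and 27.4 RPKM in ff P4 uteri and did not pass (0.43, adjusted p = 0.217). Cldn11 and Cldn34c1, Cldn34c2, Cldn22 and Cldn24 passed in none of the comparisons, with log2 values between -0.68 for Cldn22 and 0.28 for Cldn34c1 for cKO P4 against ff P4.

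Among 30 tested partners of claudins at the tight junction, 4 were higher and 6 lower in cKO V than in ff V uteri, against 13.1% higher and 11.5% lower of all tested genes, with a median log2 fold change of -0.03. Ildr1, an angulin of tricellular corners, was lower (-1.24, adjusted p = 1.22e-06), as were the plaque proteins Cgn (-0.72) and Tjp3 (-0.38), while the adhesion receptor Cxadr was higher (0.84). In cKO P4 against ff P4 uteri, 4 were higher and 3 lower (12.3% and 7.06% of all tested genes), with Cxadr (1.30) and Cgnl1 (0.50) higher and Magi1 (-1.18) and Jam2 (-1.16) lower. Ildr1 rose by 1.20 and Jam2 by 1.39 with progesterone in knockout uteri, where 3 partners were higher and 2 lower (4.00% and 4.66% of all tested genes), the lower ones being Ildr2 (-1.36) and Magi3 (-0.49). In floxed uteri 3 were higher and 6 lower (7.84% and 15.1% of all tested genes), with Jam2 (2.51) and Magi1 (1.33) higher and Tjp3 (-0.71) and Magi3 (-0.46) lower. The response of the scaffold Magi1 was 0.21 in knockout and 1.33 in floxed uteri, a difference of -1.12 (adjusted p = 0.000343). That of Tjp3 was 0.11 in knockout and -0.71 in floxed uteri, a difference of 0.83 (adjusted p = 0.00354), and neither gene passed for cKO P4 against cKO V.

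Of 9 surface proteins that bind claudins and proteases with their inhibitors, 6 were higher and 0 lower in cKO P4 than in ff P4 uteri, against 12.3% higher and 7.06% lower of all tested genes, with a median of 0.62. They included Epcam (0.88), whose protein binds and stabilises claudin 7, and the protease St14 (1.12) with its inhibitor Spint1 (0.97). After vehicle, 3 were higher and 2 lower in cKO V uteri (13.1% and 11.5% of all tested genes), with St14 (0.73) and Spint1 (0.43) among those higher and the protease Prss8 (-0.25) among those lower. In cKO P4 against cKO V uteri 3 were higher and 0 lower (4.00% and 4.66% of all), with Cd9 (0.53), a tetraspanin, Spint1 (0.67) and Epcam (0.49). In ff P4 against ff V uteri 1 was higher, Cd9 (0.42), and 2 were lower, among them Prss8 (-0.38), against 7.84% and 15.1% of all tested genes.

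Of 17 transcription and splicing factors known to act on epithelial junction genes, 1 was higher and 6 lower in cKO V than in ff V uteri, against 13.1% and 11.5% of all tested genes. Grhl3 was higher (1.44, adjusted p = 3.68e-09), and Ehf (-1.72) and Ovol2 (-0.83) were among those lower. In cKO P4 against ff P4 uteri 2 were higher, Grhl3 (1.07) and Elf3 (0.67), and 2 lower, Ehf (-1.44) and Snai2 (-0.61), shares near the 12.3% and 7.06% of all tested genes. In cKO P4 against cKO V uteri 3 were higher and 3 lower (4.00% and 4.66% of all), with Ovol2 (0.96) and Esrp1 (0.52) higher and Grhl3 (-0.61) and Zeb2 (-0.50) lower. In ff P4 against ff V uteri 0 were higher and 2 lower, Zeb2 (-0.58) and Elf3 (-0.66), against 7.84% and 15.1% of all tested genes. Of 15 adherens junction and desmosome genes, 5 were higher and 3 lower in cKO V than in ff V uteri (13.1% and 11.5% of all tested genes), with Nectin2 (0.43), Pkp3 (0.64) and Nectin1 (0.48) higher. In cKO P4 against ff P4 uteri 5 were higher and 1 lower (12.3% and 7.06% of all), with Nectin2 (0.74) and Pkp3 (1.31) higher. In ff P4 against ff V uteri 0 were higher and 3 lower (7.84% and 15.1% of all), namely Dsp (-0.78), Nectin4 (-0.68) and Pkp3 (-0.45). In cKO P4 against cKO V uteri 0 of the 15 passed in limma at the adjusted threshold (4.00% and 4.66% of all tested genes), and 5 had an unadjusted p under 0.05.

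Around Cldn6, 12 genes within 100000 bases were tested, of which 3 were higher and 1 lower in cKO V than in ff V uteri, beside 13.1% and 11.5% of all tested genes. Tnfrsf12a, 1781 bases away, was higher (1.30), as were Mmp25 (0.79) and Flywch2 (0.32), while Bicdl2, 10628 bases away on the same side as Tnfrsf12a, was lower (-0.81). Around Cldn3, 8 were tested, of which 3 were higher in cKO V uteri, namely Cldn4, Abhd11os (0.76) and Stx1a (0.25), and 0 lower, beside the same shares of all tested genes. Mettl27, 2482 bases from Cldn4, did not pass (0.37). Dzip1, which ends 31 bases from Cldn10, was higher in cKO V uteri (0.41), opposite to Cldn10.

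Across the 16 libraries of the mixed batch, which fall into 4 groups and share a batch, correlations describe how members varied together. Pearson's r of log2 levels was 0.79 between Cldn3 and Cldn10, 0.79 between Cldn1 and Cldn10 and 0.74 between Cldn1 and Cldn3. It was 0.84 between Cldn4 and Cldn23, 0.83 between Cldn6 and Cldn12 and 0.70 between Cldn4 and Cldn6, and -0.84 between Cldn6 and Cldn8. With the group means taken off, Cldn6 and Cldn8 were at 0.45, Cldn3 and Cldn4 at 0.69 (0.22 before), Cldn4 and Cldn23 at 0.80 and Cldn6 and Cldn12 at 0.79. Cldn7 followed Epcam (0.82, and 0.84 with group means taken off). Cldn1 followed Ovgp1 within groups (0.70), and Cldn1, Cldn6 and Cldn12 ran against Krt5 within groups (-0.66, -0.75 and -0.66). For these values of r, levels below 0 were set to 0, which holds for most Ovgp1 levels and for all Krt5 levels in ff P4. The r with Ovgp1 thus rests largely on the libraries with oviduct markers. The libraries with squamous markers held the highest Krt5 levels.

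The genes whose pattern was most like each member over the same 16 libraries were named by Pearson's r. For Cldn3 they were Gata2 (0.96), Baiap2 (0.96) and Pgf (0.96), and for Cldn4 Ppp4r4 (0.96), Gdpd1 (0.94) and Stard10 (0.94). For Cldn6 they included Carmil2 (0.98) and Slc26a8 (0.97), and for Cldn8 they were Ptger4 (0.95), Plekhs1 (0.95) and Cndp1 (0.95). Cldn7 was most like Crb3 (0.93), a polarity protein of the same junction, and Cldn1 like Lratd1 (0.93) and Ildr1 (0.90). Cldn10 was most like Rnf128 (0.89), Cldn12 like Zfp354a (0.95) and Cldn23 like Wfdc13 (0.90).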

How the data were processed

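Uterine RNA of 24 mouse libraries was extracted with Trizol and made into TruSeq libraries, as the labels' protocols state. The submitters' processing notes name cutadapt 2.7, TopHat, Partek and build mm10; no counting tool, strand setting or correction tool is named. The single table that the authors deposited holds batch-corrected RPKM per gene, in which 6.66% of values lie below 0. The deposited values show 1 constant per gene and batch (equal and opposite in 3223 of 3223 genes whose lowest value repeats, tolerance 0.001). The test planned for plain RPKM was kept, with values below 0 set to 0.

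Values were fitted as log2(RPKM + 0.5) for 14284 genes with limma 3.58.1 in R 4.3.3 (eBayes with trend and robust, 4 groups and batch, 19 residual degrees of freedom), two-sided, adjusted by Benjamini-Hochberg at 0.05 over all tested genes. The fit was tested on simulated data. Replicates were compared, and 0 of 276 pairs held identical values. The members and gene lists were chosen with earlier results of these data known. Named were all members, Ctcf, the tested claudins, up to 4 called genes per list with the smallest adjusted p, and up to 3 likest genes per member; genes outside that rule were chosen after their values were seen. Not every gene meeting it is reported here. Alternatives were other pseudocounts, filters, scalings, batches, weights, a replicate block and leaving out libraries.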

Additional observations from a re-analysis of the deposited data

Results flagged for a closer look

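In the 8 ff V libraries, library 1a was the highest for Cldn3 at 150.04 RPKM and for Cldn4 at 28.3 RPKM, in both cases far from the other 7. In the 8 cKO V libraries, library 10 was the highest for Cldn10 at 18.3 RPKM, far from the other 7. These 3 came from 36 combinations of member and group, and chance flags about 1 in 20. The response of Cldn23 to progesterone was greater in cKO than in ff uteri by 0.85 on the log2 scale, by the test of the difference itself. That call was lost in 17 of the 24 fits that left out 1 library and in the mixed batch alone (adjusted p = 0.131, limma).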

How the results depend on the processing

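Of the 17 member comparisons that passed, 1 changed sign under an alternative: Cldn12 in cKO P4 against ff P4 was -0.17 relative to the epithelium markers. On that scale these other log2 values, none past the threshold as reported, also changed sign. For the difference between the responses they were -0.037 for Cldn1, -0.43 for Cldn12, -0.21 for Cldn3, -0.015 for Cldn7 and -0.25 for Cldn8. For cKO P4 against cKO V they were -0.29 for Cldn12 and -0.17 for Cldn8, for ff P4 against ff V 0.14 for Cldn12 and 0.080 for Cldn8, and for cKO V against ff V 0.048 for Cldn7. On that scale 0 members passed for the difference between the responses and 2 for ff P4 against ff V, with the share of all tested genes not recorded. As RPKM differences, the difference between the responses was -3.43 for Cldn3 and 2 members passed, and Cldn6 was 0.447 in cKO P4 against cKO V. In the mixed batch alone Cldn6 was 0.42 for the difference between the responses, 0.23 for cKO P4 against cKO V and -0.19 for ff P4 against ff V, and 0 members passed for the first. With no filter on low values 0 members passed for the difference between the responses. Quantile normalization gave Cldn7 -0.027 in ff P4 against ff V.

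Filtering at 5 RPKM left 2293 genes called for cKO V against ff V and 236 for the difference between the responses, with fewer genes tested. The vehicle-only batch alone, with fewer samples, called 1085 for cKO V against ff V. Weights per library ran from 0.162 to 11.2 and their estimate stopped before it converged. They gave 6500 genes called for cKO V against ff V, 7123 for cKO P4 against ff P4, 6276 for ff P4 against ff V, 5965 for cKO P4 against cKO V and 4122 for the difference between the responses. They also gave 3 members for ff P4 against ff V and 4 for the difference between the responses, and Cldn1 was 0.049 in cKO P4 against ff P4, Cldn12 -0.070 in cKO P4 against cKO V and Cldn7 0.087 in cKO V against ff V. Without the 5 libraries with oviduct or squamous markers, 2022 genes and 0 members were called for ff P4 against ff V, 383 and 2 for cKO P4 against cKO V, and 176 and 0 for the difference between the responses. Cldn1 was then 0.18 in cKO P4 against ff P4, Cldn12 -0.013 in cKO P4 against cKO V, and in ff P4 against ff V Cldn7 was -0.22, Cldn10 -0.032 and Cldn23 -0.085. The causes of these changes were not tested.

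With numbers 1 and 11 counted once, a setting chosen after seeing the data, 2 members were called for ff P4 against ff V and 0 for the difference between the responses. With a replicate block, 2 members were called for ff P4 against ff V, where Cldn7 was -0.00040. Of 11 pairs of same-numbered libraries in different groups, 6 correlated above 0.1 in their deviations (-0.26 to 0.64). Their median was 0.16, against -0.0061 for pairs with different numbers, and the consensus correlation of the block was 0.22. Whether the numbers pair the libraries was not settled, and the reported fit does not pair them. Leaving out 1 library at a time, the difference between the responses kept 0 to 2 members and 204 to 715 genes, and ff P4 against ff V 1 to 2 members. Values that changed sign this way were Cldn1 (-0.28 to 0.084) and Cldn10 (-0.29 to 0.083) in cKO P4 against ff P4, Cldn7 (-0.13 to 0.00079) in cKO V against ff V, and Cldn12 (-0.037 to 0.063) in cKO P4 against cKO V. In ff P4 against ff V they were Cldn1 (-5.65e-05 to 0.38), Cldn7 (-0.15 to 0.16), Cldn10 (-0.041 to 0.17) and Cldn23 (-0.0091 to 0.13).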
